A study of Mus musculus with 30 samples.

Results

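The genes described here encode the drug efflux pumps of the mouse blood-brain barrier: Abcb1a and Abcb1b, the paralogs that both encode P-glycoprotein, together with Abcg2, Abcc4, Abcc1 and Abcc5. They are 6 listed genes of 21820 protein-coding genes, and 6 of the 50 genes of the ATP-binding cassette (Abc) family in the table. They were chosen by name and function. In the GRCm38 annotation Abcb1a (ENSMUSG00000040584.8, chr5:8660077-8748575) and Abcb1b (ENSMUSG00000028970.9, chr5:8798147-8866315) lie one after the other on the plus strand. Abcg2 (ENSMUSG00000029802.13, chr6:58584523-58695676) and Abcc1 (ENSMUSG00000023088.17, chr16:14361558-14475737) also lie on the plus strand, and Abcc4 (ENSMUSG00000032849.14, chr14:118482692-118706219) and Abcc5 (ENSMUSG00000022822.16, chr16:20331303-20426394) on the minus strand.

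Efflux pumps of the Abc family bind and split ATP to move their substrates out of the cell. P-glycoprotein sits on the blood-facing membrane of brain endothelial cells (ECs) and exports many hydrophobic drugs, and mice, unlike humans, carry a pair of genes for it. Abcg2 encodes the breast cancer resistance protein, which shares many substrates with P-glycoprotein. The Abcc genes encode multidrug resistance proteins that export organic anions: Abcc4 also moves cyclic nucleotides, Abcc1 moves glutathione conjugates, and Abcc5 moves cyclic nucleotides and nucleotide analogs. In brain ECs these pumps are a main part of the barrier to drugs.

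RNA-seq covered 14 libraries of cells from adult male mice. Acutely isolated brain ECs (2 libraries) and GFP-negative cells (2) were sorted from Tie2-GFP mice, in which the Tie2 promoter drives GFP in ECs, and each of these libraries combines cerebrum and cerebellum. Brain ECs cultured for 8 days came from WT mice (6 libraries) or from Ctnnb1flex3/+;Pdgfb-CreER;Tie2-GFP mice (4), in which Cre under the Pdgfb promoter removes exon 3 of the beta-catenin gene after 4-hydroxytamoxifen and so stabilizes the protein. WT replicates 1 and 2 were C57BL/6J mice isolated by method A, and WT replicates 3 to 6 were Ctnnb1flex3/+;Tie2-GFP mice without Cre isolated by method B. The first 2 stabilized replicates came from method A and the last 2 from method B. Mice carrying Ctnnb1flex3/+ had received 4-hydroxytamoxifen with or without Cre. Each culture pooled the brains of several mice, and replicates are wells, 2 from each experiment. All cultures had been selected with puromycin, a substrate of P-glycoprotein, at 4 ug/ml in method A and 8 ug/ml in method B. The product of Abcb1a and Abcb1b was therefore itself the basis of the selection, and selection and culture cannot be told apart. The sorted libraries were single reads of 75 cycles, and the cultures were read pairs of 36 cycles, or of 150 cycles for WT replicates 3 and 4, so read type and culture cannot be told apart either. WT replicates 3 and 4 were also prepared at another facility, and read length and library preparation cannot be told apart for them.

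Libraries held 24284843 to 94686456 estimated counts. Endothelial markers (6 genes) summed to 3045 to 3584 TPM in acutely isolated ECs, 749 to 1959 in WT cultures and 1001 to 3356 in stabilized cultures. In GFP-negative cells they summed to 8.44 to 36.1, so every EC group lay above those cells. The acutely isolated ECs also carried pericyte RNA (7 markers, 975 to 1089 TPM, against 4.3 to 11 in WT cultures) and erythrocyte RNA (4 markers, 11158 to 75292 TPM, against at most 1.41). Pericyte markers stood at 757 to 1350 TPM in GFP-negative cells, a range that holds that of the acutely isolated ECs. Smooth muscle markers (4) stood at 393 to 478 TPM in acutely isolated ECs and 514 to 3272 in WT cultures, reaching above the highest endothelial sum there. Mitochondrial transcripts took 10.6% to 24.2% of the counts of the acutely isolated libraries and 0.667% to 2.58% of the cultures. Transcripts shorter than 300 bases took 45.4% to 53% of all TPM in the 4 acutely isolated libraries and 1.36% to 6.81% in the 10 cultures, but at most 1.69% of the counts in any library. The part of these differences in the results below was not tested. Levels are given as CPM, the count scaled to the total of its library, for comparison between groups, and as TPM (transcripts scaled by length and library) recomputed over transcripts of at least 300 bases, called length-limited TPM, for comparison between genes. The marker sums above are on the length-limited scale. TPM named without this term sums all transcripts, or only those stated, and was not rescaled. Short transcripts lower such TPM in the acutely isolated libraries more than in the cultures. They can raise it for a gene that has short transcripts of its own, as for Abcb1a in acutely isolated ECs.

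Acutely isolated brain ECs were dominated by Abcb1a and Abcg2, whereas cultures held all 6 genes at more similar levels. In acutely isolated ECs the length-limited TPM was 624 and 897 for Abcb1a, 434 and 641 for Abcg2, 109 and 74.2 for Abcc4, 42 and 8.24 for Abcc5, 2.39 and 1.32 for Abcc1, and 2 and 0.613 for Abcb1b. The ranges of Abcb1a and Abcg2 overlapped, as did those of Abcc1 and Abcb1b, while the steps from Abcg2 to Abcc4 to Abcc5 to Abcc1 did not. In WT cultures Abcg2 was highest, with a median of 322 length-limited TPM, above Abcb1a at 42.7 and Abcb1b at 39.7, whose ranges overlapped with each other but not with that of Abcg2. Abcc1 (median 16.7), Abcc4 (16.6) and Abcc5 (8.75) followed, each overlapping the next. In the stabilized cultures the order was the same, except that Abcc4 (20.9) stood before Abcc1 (15) with overlapping ranges.

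**Figure D1:**
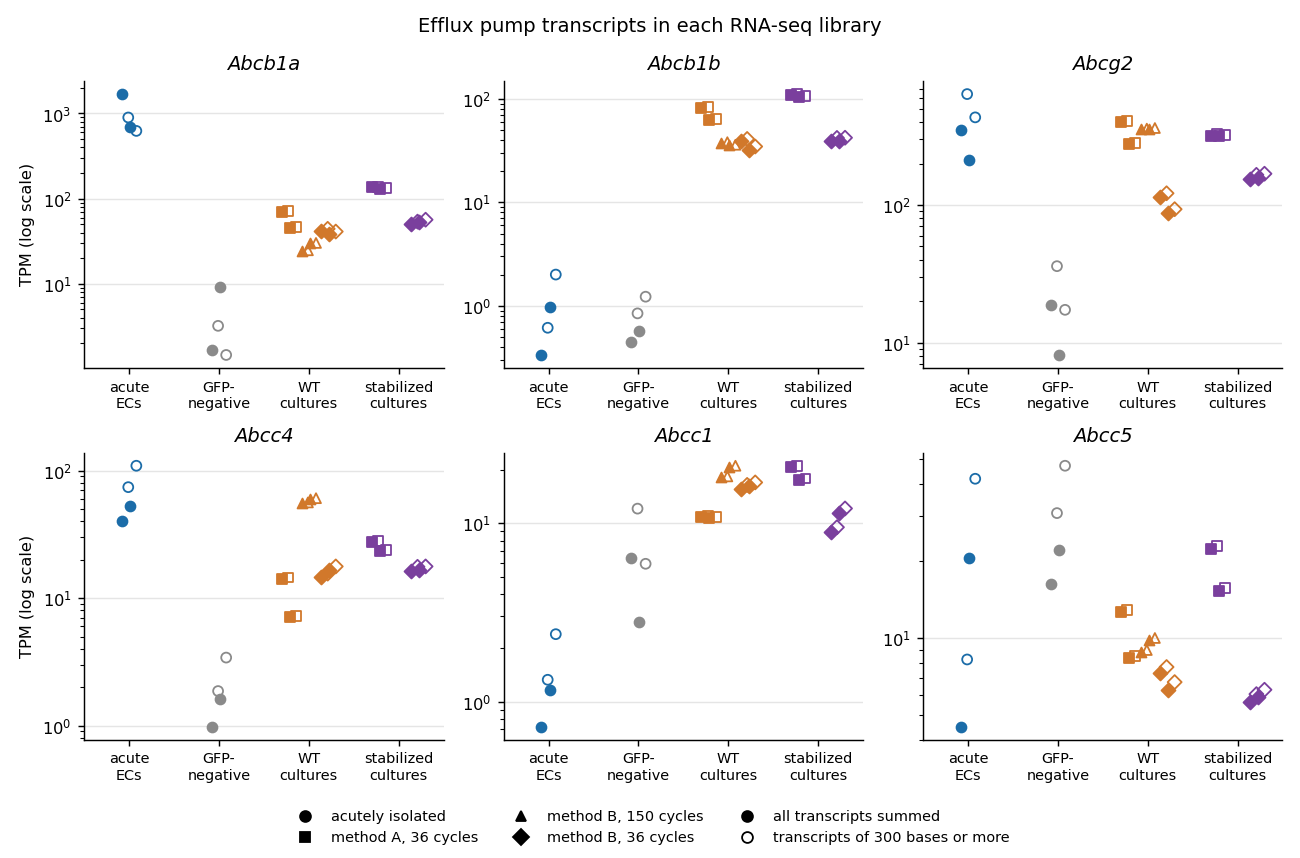
TPM of the 6 efflux pump genes in each of the 14 RNA-seq libraries on a log axis, by group, with the marker shape giving isolation method and read length; filled symbols sum all transcripts and open symbols sum transcripts of at least 300 bases. Abcb1a lies at 624 to 897 length-limited TPM in acutely isolated ECs and at 24.8 to 71.6 in WT cultures, and Abcb1b lies at 0.613 to 2 and at 34.7 to 83.

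The effect of culture was asked by comparing WT cultures with acutely isolated ECs. Abcb1a fell and Abcb1b rose. Abcb1a stood at 2553 and 3187 CPM in acutely isolated ECs. In WT replicates 1 to 6 it stood at 265, 363, 90.4, 77.5, 220.4 and 236 CPM. The groups did not overlap, the 150-cycle libraries (replicates 3 and 4) were lowest and the method A wells were highest. The fold change was -4.02 ± 0.60 (SE) on the log2 scale, 16.2-fold lower in culture (edgeR adjusted p = 0.00105). Within method A it was -3.42 and within method B -4.44. With an offset for the effective length of the transcripts it was -5.16. That offset weights lengths by TPM, so in acutely isolated ECs it is drawn to the short Abcb1a-204 described below. The -5.16 is therefore not a check free of that transcript. In bulk RNA, fewer cells of a type and less RNA per cell cannot be told apart.

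Part of the Abcb1a signal of the acutely isolated ECs came from transcripts other than the protein-coding one. The annotation lists 4 Abcb1a transcripts, of which 1 is protein coding. This transcript, Abcb1a-201, held 79.6% and 69.5% of the Abcb1a counts of the acutely isolated ECs, and at least 99.6% in every culture. Its TPM was 176 and 215 in acutely isolated ECs, 24.3 to 69.2 in WT cultures and 49.9 to 133 in stabilized cultures. Abcb1a-202, a transcript with a retained intron, held 20.2% and 30.1% of the counts in acutely isolated ECs and at most 0.407% in WT cultures. Abcb1a-204, a processed transcript of 129 bases, held 0.183% and 0.391% of the counts in acutely isolated ECs but 384 and 1199 TPM, at an effective length of 5 bases. It held no counts in any WT culture. The TPM of the whole gene in acutely isolated ECs (688 and 1689) thus included 55.8% and 71% from 442 and 694 counts of this short transcript. On protein-coding transcripts alone, the fold change of Abcb1a was -3.81 (edgeR adjusted p = 0.00132).

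**Figure D2:**
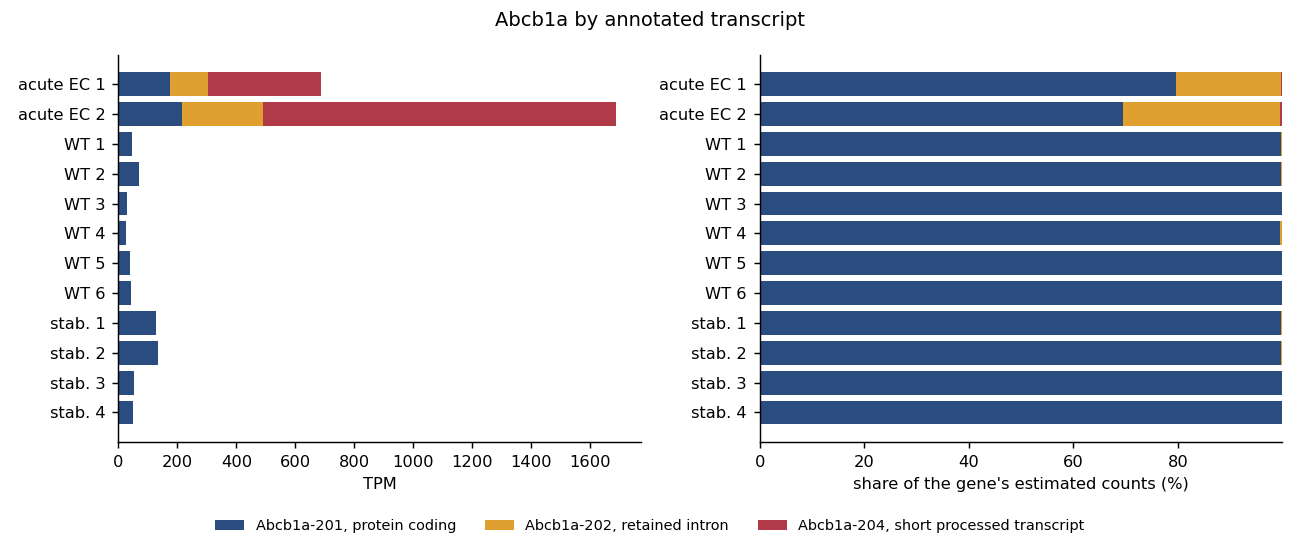
Abcb1a by annotated transcript in the EC libraries before and after culture, as TPM (left) and as percent of the gene's estimated counts (right), with 1 bar per library. Abcb1a-204 makes up 384 and 1199 TPM of the acutely isolated libraries but at most 0.391% of their Abcb1a counts, and nearly all counts of the cultures belong to Abcb1a-201.

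Abcb1a-204 is shown because it carries most of the Abcb1a TPM of the acutely isolated ECs. Its 35 bases in capitals are not in Abcb1a-201, and the other 94 are.
Abcb1a-204: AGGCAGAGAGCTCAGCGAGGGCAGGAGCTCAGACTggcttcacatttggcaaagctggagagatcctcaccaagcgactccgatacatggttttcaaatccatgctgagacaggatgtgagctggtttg
The same 94 bases show how close the paralogs are. Capitals mark the 5 bases at which Abcb1a-201 and Abcb1b-201 differ over this stretch.
Abcb1a-201: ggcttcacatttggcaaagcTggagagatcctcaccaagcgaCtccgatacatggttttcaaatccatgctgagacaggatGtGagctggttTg
Abcb1b-201: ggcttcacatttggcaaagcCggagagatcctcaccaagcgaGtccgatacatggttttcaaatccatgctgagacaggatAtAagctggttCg
Over 4268 aligned bases the protein-coding transcripts of both genes were 86.2% identical, with a longest identical run of 338 bases. Of the stretches of 36 bases in Abcb1a-201, 19.6% also occur in any annotated Abcb1b transcript. For stretches of 75 bases this was 10.6%, and for 150 bases 4.41%. Reads from these stretches had to be split between the genes by the quantifier, so the split is uncertain. The sorted libraries were single reads and the cultures read pairs, and the uncertainty in each library was not tested.

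Abcb1b stood at 1.61 and 2.37 CPM in acutely isolated ECs, from 153 and 132 estimated counts beside 241722 and 177506 of Abcb1a. In WT replicates 1 to 6 it stood at 172, 198, 79.7, 78.3, 94.2 and 102 CPM. Every culture exceeded both acutely isolated libraries, and the method A wells were highest. The fold change was 5.67 ± 0.69 (SE) on the log2 scale, 50.9-fold higher in culture (edgeR adjusted p = 0.000455), at 6.33 within method A and 5.18 within method B. How many of the acutely isolated Abcb1b counts were reads of its paralog was not tested. The gene has 9 annotated transcripts. In acutely isolated replicate 1, 91.7% of the Abcb1b counts belonged to transcripts that are not protein coding, against 13.2% in replicate 2. On TPM of protein-coding transcripts, which was not rescaled, WT cultures were 218-fold higher. The mean in acutely isolated ECs was 0.121 TPM, so that fold rests on few counts and on a scale lowered there by short transcripts. The edgeR fit to the counts of protein-coding transcripts gave 6.31 (adjusted p = 0.00234). Abcb1b-203, which is annotated for nonsense-mediated decay and has 690 bases, held 2.54% to 10.7% of the counts of WT cultures but 15.3% to 51.9% of the TPM, with the lowest shares in the 150-cycle libraries.

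Counted as 1 gene, Abcb1a and Abcb1b together fell by 3.37 ± 0.53 (SE) on the log2 scale in WT cultures (edgeR adjusted p = 0.00134), and this sum does not depend on how reads were split between them.

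The share of Abcb1a in the summed TPM of Abcb1a and Abcb1b was 99.86% and 99.98% in acutely isolated ECs. It was, for WT replicates 1 to 6, 42%, 46.3%, 45.6%, 39.3%, 54.2% and 51.9%. The groups did not overlap, and in 4 of 6 WT cultures Abcb1b held the larger share. The mean of WT cultures was 46.5% ± 5.68 (SD, n = 6), 53.4 points below that of acutely isolated ECs. The exact permutation test over libraries, two-sided, gave p = 0.0714, the smallest value that 6 against 2 libraries allow, so this design cannot reach 0.05. The size of the difference depends on the scale. By estimated counts the mean share of WT cultures was 61.4%, and by TPM of protein-coding transcripts it was 60.4%, with Abcb1a above Abcb1b in 5 of 6 WT cultures on each. In GFP-negative cells the share was 94.1% and 79.2%, at a summed level of 9.81 and 2.14 TPM, and in the first of these 92.6% of the Abcb1a TPM was Abcb1a-204.

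In stabilized replicates 1 to 4 the share was 55.5%, 55.6%, 57.3% and 56.1% (mean 56.1% ± 0.831, SD, n = 4), above all 6 WT cultures by 9.58 points on average. The exact permutation test, two-sided, gave p = 0.00952, the smallest value that 4 against 6 libraries allow. Over the 8 cultures of 36 cycles the difference was 7.54 points (exact permutation p = 0.0286, again the smallest possible). The call was lost on other scales: the difference was 9.21 points by counts and 9.57 points by protein-coding TPM, each with an exact permutation p of 0.0571. With the wells of an experiment averaged, 2 stabilized and 3 WT experiments gave an exact permutation p of 0.2, the smallest this design allows.

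**Figure D3:**
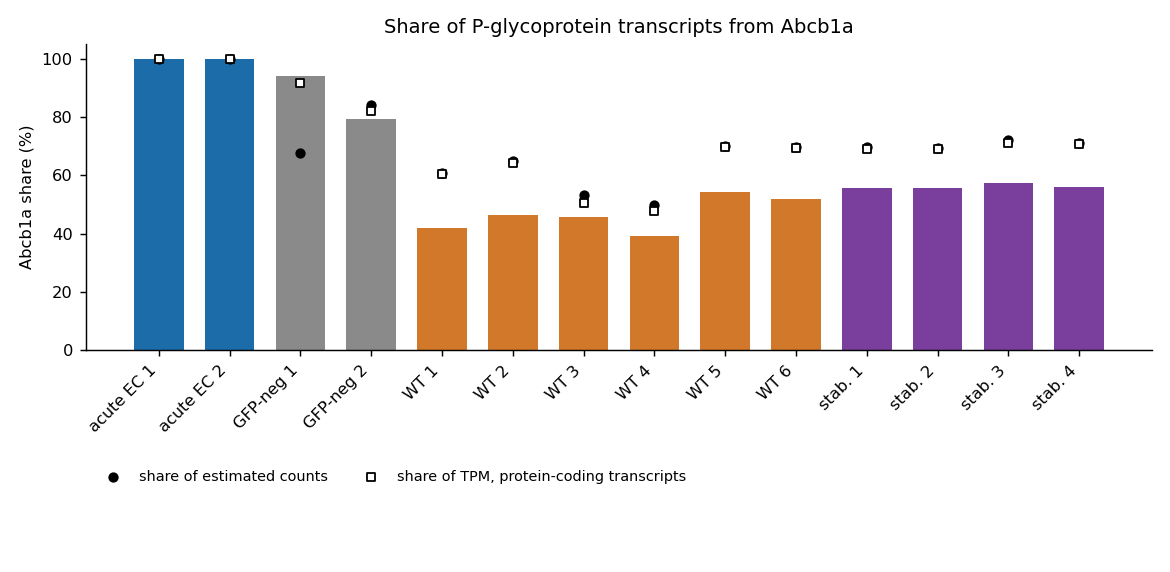
Share of Abcb1a in the sum of Abcb1a and Abcb1b in each RNA-seq library, as percent of TPM (bars), of estimated counts (black points) and of TPM of protein-coding transcripts (open squares). The acutely isolated ECs lie at 99.86% and 99.98%, the WT cultures at 39.3% to 54.2% of TPM and the stabilized cultures at 55.5% to 57.3%.

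Abcg2 varied between experiments in culture, and its difference from acutely isolated ECs depended on the scale. It stood at 503 and 669 CPM before culture. WT replicates 1 to 6 held 586, 721, 545, 557, 185 and 222 CPM. Replicates 5 and 6, isolated by method B at 36 cycles, lay below both acutely isolated libraries, and the other 4 overlapped them. On length-limited TPM all 6 WT cultures lay below both acutely isolated libraries, at 93.3 to 408 against 434 and 641. The fold change of -0.65 ± 0.48 (SE) did not pass the test (edgeR adjusted p = 0.296). Within method A it was -0.06 and within method B -1.06 (edgeR adjusted p = 0.0742). The predominant transcript was Abcg2-202 in every group of ECs, with at least 85.1% of the gene's counts.

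Abcc4 fell in culture. It stood at 435 and 510.1 CPM before culture. The WT wells 1 to 6 held 49.2, 85.5, 192, 184, 106 and 97.8 CPM. On this scale no culture reached the acutely isolated level, and the 150-cycle wells were the highest of the cultures. The fold change was -2.36 ± 0.37 (SE) on the log2 scale (edgeR adjusted p = 0.00134), at -3.06 within method A and -2.11 within method B. With the offset for effective transcript length it was -1.73. Abcc4-206, a processed transcript with no counts in any culture, held 34.5% and 6.32% of the Abcc4 counts of the acutely isolated ECs. On the TPM scales the difference was smaller. Over all transcripts Abcc4 stood at 53.2 and 40.5 TPM before culture, and the 150-cycle wells exceeded this at 59.9 and 55.5 TPM, against 7.06 to 16.5 in the other WT wells. On protein-coding transcripts the group means were 27.6 and 26.7 TPM (1.03-fold) with overlapping ranges. Neither of these scales was rescaled, and transcripts under 300 bases took 51.2% and 45.4% of TPM in the acutely isolated ECs. In WT cultures they took 1.36% to 6.81%, so these near-equal levels do not show that Abcc4 was kept. Length-limited TPM, which was rescaled, put acutely isolated ECs at 109 and 74.2 and WT cultures at 7.22 to 60.8. That was 3.2-fold higher before culture, without overlap. The edgeR fit to counts of protein-coding transcripts gave -2.20 (adjusted p = 0.00206), so the size of the fall depends on the scale.

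Abcc1 rose in culture from a low level. It stood at 3.88 and 7.86 CPM in acutely isolated ECs, below the GFP-negative cells at 23.5 and 14.2. In WT replicates 1 to 6 it stood at 65.3, 74.2, 78.1, 69.8, 122 and 108 CPM. All cultures exceeded every acutely isolated library, with replicates 5 and 6 highest. The fold change was 3.65 ± 0.51 (SE) on the log2 scale, 12.6-fold higher (edgeR adjusted p = 0.000786). Abcc5 stood at 24.7 and 40.1 CPM in acutely isolated ECs and at 33, 43.2, 25.8, 26.9, 29.9 and 28.8 in WT replicates 1 to 6. The ranges overlapped, and the fold change of -0.31 ± 0.32 (SE) did not pass the test (edgeR adjusted p = 0.461). Its level per length in the acutely isolated ECs was uncertain, with 42 and 8.24 length-limited TPM beside 24.7 and 40.1 CPM. On TPM of protein-coding transcripts the direction was the opposite, with 1.83 and 3.63 TPM in acutely isolated ECs and 4.36 to 9.74 in WT cultures. The means differed 2.44-fold, without overlap. This TPM was not rescaled, and transcripts under 300 bases took 51.2% and 45.4% of all TPM in the acutely isolated ECs. The scale is thus lowered before culture, and neither the direction nor the lack of overlap can be read as a change of Abcc5. The edgeR fit to the counts of protein-coding transcripts gave -0.18 (adjusted p = 0.711).

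Thus 4 of the 6 genes were called in WT cultures, 2 higher and 2 lower, where a call needs an edgeR adjusted p under 0.05, a change above 2-fold and at least 5 TPM in every replicate of the higher group. Of 13784 genes tested, 23.8% were called, 13.5% higher and 10.2% lower. The 5 TPM were taken over all transcripts, a scale lowered in the acutely isolated libraries, which bears on calls of lower genes. Over transcripts of at least 300 bases, 1889 genes were called higher and 1684 lower of 13771 tested, in place of 1866 and 1409. Of the pump genes 4 were again called. Over the 6 genes the median was -0.48 on the log2 scale, against 0.10 over all genes tested. The 4 calls held without each library in turn.

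Endothelial enrichment was asked by comparing GFP-positive with GFP-negative cells, a comparison that shares the 2 acutely isolated EC libraries with the one above. Abcb1a, Abcg2 and Abcc4 were higher in ECs. Abcb1a stood at 6.37 and 15.5 CPM in GFP-negative cells, so that the fold change was 8.38 ± 0.58 (SE) on the log2 scale (edgeR adjusted p = 0.00164). Abcg2 stood at 17.2 and 20.9 CPM there and had a fold change of 5.23 ± 0.34 (edgeR adjusted p = 0.00164). Abcc4 stood at 16.6 and 11.7 CPM and had a fold change of 5.33 ± 0.44 (edgeR adjusted p = 0.00173). The other 3 genes did not pass the test. Their log2 fold changes were -0.32 for Abcb1b, -1.48 for Abcc1 (edgeR adjusted p = 0.131) and -0.41 for Abcc5. Of 15102 genes tested, 15.9% were called, 8.3% higher and 7.56% lower in ECs, beside 3 higher and 0 lower of the 6 pump genes. Side by side, the genes enriched in ECs (Abcb1a, Abcg2, Abcc4) had culture fold changes of -4.02, -0.65 and -2.36, and those without a call for enrichment (Abcb1b, Abcc1, Abcc5) had 5.67, 3.65 and -0.31.

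**Figure D4:**
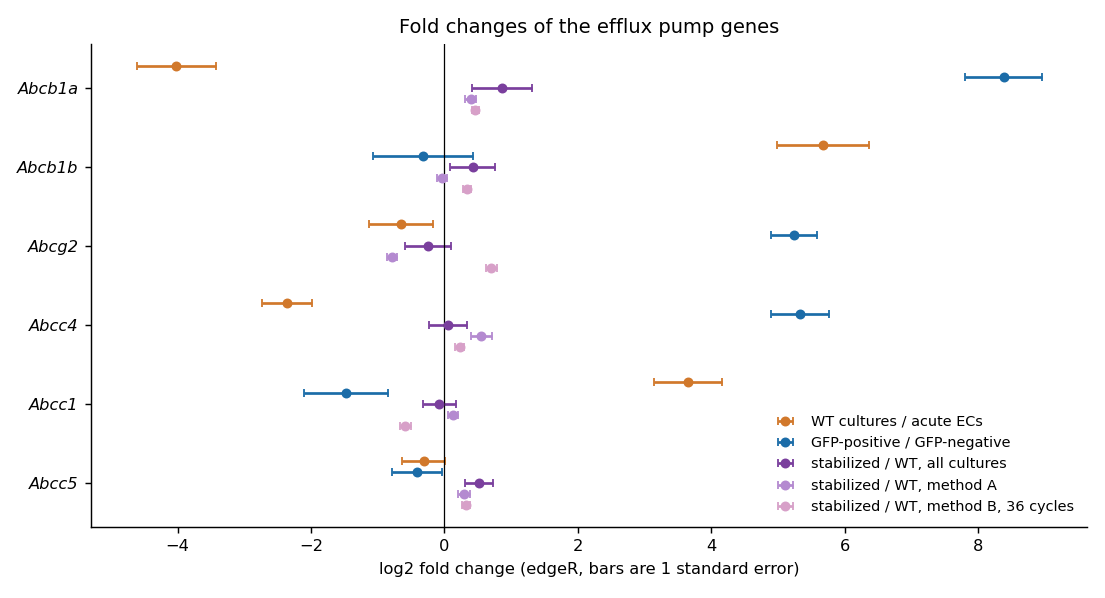
Log2 fold changes of the 6 efflux pump genes from edgeR, with bars of 1 standard error, for the effect of culture, for sorted GFP-positive over GFP-negative cells, and for beta-catenin stabilization over all cultures and within each isolation method at 36 cycles. Abcb1b at 5.67 and Abcc1 at 3.65 lie right of zero for culture, Abcb1a at -4.02 and Abcc4 at -2.36 lie left of it, and all values for stabilization lie between -0.78 and 0.86.

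Among the other 44 Abc genes, 27 were tested for the effect of culture, and 1 rose and 2 fell by the same rule. Abcc9, a regulatory subunit of potassium channels that is typical of pericytes, fell by 8.84 on the log2 scale (edgeR adjusted p = 0.000198), from 166 and 141 CPM to at most 1.08 CPM, together with the pericyte markers given above. The part of these cells in that result was not tested. Abca1, which exports cholesterol, fell by 2.24 (edgeR adjusted p = 0.00206), and Abce1, a factor of ribosome recycling and not a transporter, rose by 1.24 (edgeR adjusted p = 0.0121; 0.0724 without acute EC replicate 2). Over transcripts of at least 300 bases, 10 of 33 Abc genes tested were called, 4 higher and 6 lower. Of all 13771 genes tested there, 1889 were called higher and 1684 lower. Without the minimum of 5 TPM, 16 of 33 Abc genes tested passed in place of 7, beside 43.4% of all genes tested. In the comparison of sorted cells, 13 of 39 passed without it in place of 6, beside 29.7% of all genes.

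Transcription factors known to act on efflux pump genes were examined as a list of 26, of which 23 were tested. In WT cultures 8 fell and 1 rose, beside the 10.2% of all genes called lower and 13.5% called higher, with a list median of -1.20 against 0.10 for all genes. Tcf7 and Lef1, the nuclear partners of beta-catenin, fell by 5.99 (edgeR adjusted p = 0.000219) and 4.63 (0.000644). Epas1, a hypoxia-inducible factor typical of ECs, fell by 3.65 (0.000874), and Nr3c1, the glucocorticoid receptor, fell by 2.25 (0.00355). Sp1 fell by 2.20, Arnt by 1.88, Ets1 by 1.24 and Ctnnb1 by 1.20, and Rela, a subunit of NF-kappaB, rose by 1.82. The last 5 calls were less secure. Without acute EC replicate 1 the adjusted p was 0.0946 for Sp1, 0.306 for Arnt, 0.0998 for Ets1, 0.222 for Ctnnb1 and 0.171 for Rela. Without acute EC replicate 2 it was 0.0646 for Ctnnb1 and 0.151 for Rela, and without any 1 of WT replicates 3 to 6 it was 0.0657 to 0.0768 for Ctnnb1. Of the list, 10 genes were higher in GFP-positive than in GFP-negative cells and 0 lower, beside 8.3% and 7.56% of all genes tested.

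The effect of beta-catenin stabilization was asked by comparing the stabilized with the WT cultures. The summed level of Ctnnb1 did not pass the test (0.07, edgeR adjusted p = 0.936), and a gene sum does not show whether exon 3 was removed. None of the 6 pump genes was called, nor was any of 12958 genes tested (0%) by edgeR, although 1344 genes had an unadjusted p under 0.05. By DESeq2, 15 genes were called higher and 3 lower, with none of the pump genes among them. Abcb1a stood at 469, 445, 310.1 and 319 CPM in stabilized replicates 1 to 4, against 77.5 to 363 in the WT cultures. The fold change was 0.86 ± 0.45 (SE; edgeR adjusted p = 0.521). The other log2 fold changes over all cultures were 0.42 ± 0.34 for Abcb1b, -0.25 ± 0.35 for Abcg2, 0.06 ± 0.28 for Abcc4, -0.07 ± 0.25 for Abcc1 and 0.52 ± 0.21 for Abcc5. The lowest edgeR adjusted p of the 6 was that of Abcc5, at 0.453.

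Isolation method moved with these values. Replicate numbers followed the method in both groups, and with the replicate block edgeR called 132 genes higher and 55 lower (1.4% of those tested), again with no pump gene among them (Abcb1a 1.32, edgeR adjusted p = 0.138). This block sets the 150-cycle WT replicates 3 and 4 beside 36-cycle stabilized wells. Within a method the wells of each group were close to each other, so that small differences passed the test, but each group is then 2 wells of 1 experiment. In method A, 56% of the 12848 genes tested had an edgeR adjusted p under 0.05, and 6.3% were called. In method B at 36 cycles these shares were 37.1% and 1.36% of 12835 genes. A passing p within a method is thus read against a high background.

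Abcb1a was higher in the stabilized wells in both methods. In method A it stood at 469 and 445 CPM against 265 and 363 in WT wells, with a log2 fold change of 0.39 (edgeR adjusted p = 0.00837). In method B at 36 cycles it stood at 310.1 and 319 against 220.4 and 236, with a log2 fold change of 0.46 (0.00232). Abcc5 differed in the same way, with log2 fold changes of 0.29 in method A (edgeR adjusted p = 0.023) and 0.32 in method B (0.0109). On the TPM scale, however, Abcc5 was lower in the stabilized wells of method B, at 5.87 and 5.63 TPM against 6.26 and 7.28. Its direction there thus depends on the scale. Abcc4 had 0.55 in method A (edgeR adjusted p = 0.0237) and 0.23 in method B (0.0452). None of these edgeR fold changes reached 2-fold. On the TPM scale the differences of method A were larger: Abcb1a was 2.3-fold and Abcc4 2.39-fold higher in stabilized wells, neither with overlap, against 1.29-fold and 1.06-fold in method B, where the Abcc4 wells overlapped. The size of these changes thus depends on the scale. In method A the ratio of stabilized to WT wells was higher on TPM than on CPM for every pump gene. For Abcb1a it was 2.3 against 1.45, and for Abcg2 0.94 against 0.647. In method B it was lower on TPM for every pump gene. Whether the length of a gene's transcripts or the make-up of the whole library made this shift was not tested.

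Abcg2 differed in opposite directions in the methods. In method A it stood at 435 and 410.4 CPM in stabilized wells against 586 and 721 in WT wells, a log2 fold change of -0.78 (edgeR adjusted p = 0.000716). In method B it stood at 319 and 344 against 185 and 222, a log2 fold change of 0.70 (0.00283). The interaction of stabilization with method was 1.5 ± 0.12 (SE; edgeR adjusted p = 9.66e-05), the only pump gene called. Abcc1 had an interaction of -0.69 (edgeR adjusted p = 0.00111) and Abcb1b of 0.40 (0.00988). For Abcb1b the order of the methods turned round on the TPM scale, where stabilized wells were 1.47-fold higher in method A and 1.11-fold higher in method B, so the sign of its interaction depends on the scale. For Abcb1a, Abcc4 and Abcc5 it was 0.09, -0.30 and 0.05 and did not pass. Of 13356 genes tested for interaction, 49.6% had an adjusted p under 0.05 and 6.02% were called, and 3 of the 6 pump genes is near that background. On the TPM scale the Abcg2 wells of method A overlapped, at 316 and 320.0 TPM in stabilized wells against 278 and 398. Isolation method, puromycin dose, experiment and the genotype of the WT mice (C57BL/6J in method A) changed together and cannot be told apart.

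Genes with the most similar pattern over the 14 libraries were found by Pearson correlation of log2(TPM + 1) over 11601 protein-coding genes. The points share libraries and groups, so r is a description. TPM in this paragraph sums all transcripts unless a minimum length is given. Short transcripts lower it in the acutely isolated libraries, but genes with short transcripts of their own can go the other way. In acutely isolated ECs Fmo2 stood at 45.6 and 161 TPM but 22.4 and 72.7 length-limited TPM, and Esam at 822 and 1346 but 560 and 552. Flt1 was higher over all transcripts in replicate 1 (1175 against 953) and lower in replicate 2 (1134 against 1462). Nearest to Abcb1a were Clic5 (r = 0.963), Fmo2 (0.958) and Flt1 (0.956), the last a receptor for VEGF with 1134 to 1175 TPM in acutely isolated ECs and 44.4 to 98.7 in WT cultures. Nearest to Abcb1b were 4930486L24Rik (0.991), Tlr4 (0.989), the receptor for bacterial lipopolysaccharide, and Ulbp1 (0.989). Tlr4 stood at 0.738 to 0.956 TPM in acutely isolated ECs and 22.3 to 62 in WT cultures. Abcg2 was nearest to Ly6a (0.988), Tnfsfm13 (0.985) and Casp8 (0.981), and Abcc4 to Gata2 (0.980), a transcription factor of ECs and blood cells, Esam (0.971), an endothelial adhesion molecule, and AI467606 (0.960). Abcc1 was nearest to P4ha1 (0.977), a collagen hydroxylase, Itgb1bp1 (0.975) and Thbs1 (0.974), a secreted matrix protein that stood at 0.32 to 0.385 TPM in acutely isolated ECs and 478 to 1126 in WT cultures. The TPM of Abcb1a in acutely isolated ECs was mostly that of Abcb1a-204. Over transcripts of at least 300 bases its nearest genes were Flt1 (0.984), Podxl (0.978) and Slfn3 (0.966), and Clic5 was not among the nearest 10. Abcc5 was nearest to Ankle2 (0.907), Col1a2 (0.901) and Iffo1 (0.882), with the lowest r of the 6. Over transcripts of at least 300 bases P4ha1 and Thbs1 were not among the nearest 10 of Abcc1. Esam was then not among those of Abcc4, nor Col1a2 among those of Abcc5. The 3 nearest genes of Abcb1b and of Abcg2 stayed among their nearest 10.

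ATAC-seq, which cuts accessible DNA with a transposase, was made on 2 acutely isolated EC samples, on 6 WT cultures and on 2 stabilized ones, the last by method B. The files hold peaks called in each library, with the fold enrichment over local background at the summit, which is not scaled between libraries. WT replicates 1 and 2 had the fewest peaks of the cultures (50272 and 33032 against 79004 to 98603), and the acutely isolated ECs had 37211 and 31601. A missing peak says less in these 4 libraries. Within 1000 bases of the start sites of Abcg2, Abcc4, Abcc1 and Abcc5 a peak was found in all 10 libraries. At Abcg2 the fold enrichment was 17.8 to 18.2 in acutely isolated ECs, 10.3 to 14.7 in WT cultures and 10.7 to 11.2 in stabilized cultures.

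The start sites of the P-glycoprotein genes differed between acutely isolated and cultured ECs. At the start of Abcb1b (chromosome 5, position 8798186, GRCm38) no peak was called in acutely isolated replicate 1. Replicate 2 had 2 peaks within 1000 bases, and the nearest to the start had a fold enrichment of 3.15. In WT replicates 1 to 6 the fold enrichment was 11.4, 7.88, 14.8, 14.4, 13.9 and 14.5, and in both stabilized libraries it was 13.5. Abcb1a has more than 1 annotated start. The GENCODE M21 start of Abcb1a-201 lies at position 8660077, and RefSeq lists an upstream start at 8567091, within an intron of Rundc3b by GENCODE. The upstream start was added after the peaks had been seen. At the downstream start the fold enrichment was 3.53 and 3.41 in acutely isolated ECs, 8.63, 6.78, 12.3, 12.6, 11.8 and 13.4 in WT replicates 1 to 6, and 12.1 and 12.4 in stabilized cultures. At the upstream start it was 8.3 and 7.87 in acutely isolated ECs and 5.93, 5.87, 4.84 and 6.03 in WT replicates 3 to 6, with no peak in WT replicates 1 and 2 or in the stabilized libraries. Within a library the ratio of upstream to downstream was 2.35 and 2.31 in acutely isolated ECs and 0.409 to 0.484 in the 4 WT cultures that had both peaks. Where several peaks lay within 1000 bases of a start, only the nearest was used. At the upstream start those 4 WT cultures had 2 peaks each and the acutely isolated libraries 1. By MACS2 the downstream peaks of the acutely isolated ECs had a −log10 q of 6.05 and 5.65, below the stricter limit of 10. The upstream peak of WT replicate 5 was also below it, at 8.99. The RNA-seq transcripts quantified here include none that begins at the upstream start, so its use could not be read from the counts.

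The 3 start sites are printed because their accessibility differed between the groups. Each window runs from 250 bases before the start to 50 after it on the plus strand of GRCm38, and capitals mark matches, on either strand, of GGGCGG (Sp1), the CCAAT box, the core of the hypoxia response element (ACGTG), and the TCF/LEF letters CTTTGA.
Abcb1a upstream start, chr5:8566841-8567140: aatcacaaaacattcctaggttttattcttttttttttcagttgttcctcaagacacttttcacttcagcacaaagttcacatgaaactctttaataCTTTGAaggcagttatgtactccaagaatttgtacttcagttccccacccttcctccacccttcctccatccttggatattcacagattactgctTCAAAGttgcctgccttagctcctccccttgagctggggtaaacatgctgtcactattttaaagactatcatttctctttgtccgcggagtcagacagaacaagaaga
Abcb1a downstream start, chr5:8659827-8660126: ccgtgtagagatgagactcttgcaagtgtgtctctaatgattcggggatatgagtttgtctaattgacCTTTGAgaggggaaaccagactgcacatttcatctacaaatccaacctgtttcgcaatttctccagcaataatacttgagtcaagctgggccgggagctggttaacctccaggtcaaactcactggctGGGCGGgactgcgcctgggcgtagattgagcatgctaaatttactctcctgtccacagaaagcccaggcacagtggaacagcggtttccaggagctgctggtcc
Abcb1b start, chr5:8797936-8798235: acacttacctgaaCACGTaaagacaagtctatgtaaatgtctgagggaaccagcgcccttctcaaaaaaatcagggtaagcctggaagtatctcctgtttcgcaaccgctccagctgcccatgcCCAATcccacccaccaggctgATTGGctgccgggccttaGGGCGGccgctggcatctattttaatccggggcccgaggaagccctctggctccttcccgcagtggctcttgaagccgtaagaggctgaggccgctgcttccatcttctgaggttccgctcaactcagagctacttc
The upstream Abcb1a window held 2 matches of CTTTGA and none of the other letters. The downstream window held 1 match of CTTTGA and 1 of GGGCGG. The Abcb1b window held 2 matches of CCAAT and 1 each of GGGCGG and ACGTG. Of 32817 RefSeq promoter windows of the same length, 35.6% held GGGCGG, 37.4% CCAAT, 19.6% ACGTG and 16% CTTTGA.

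Within 100000 bases to each side of the 6 genes, the peaks of the 10 libraries merged into 166 regions. Of these, 5 were found in both acutely isolated libraries and no culture, 12 in all 8 cultures and neither acutely isolated library, and 19 in all 10 libraries. Over 125880 regions of the genome these patterns made up 2.83%, 8.03% and 13.4%. The Abcb1a locus held 1 of the acute-only regions, chr5:8590250-8590912, with a fold enrichment of 14.5 and 14. It lies in an intron of Rundc3b, between the upstream and downstream starts of Abcb1a. Its neighbour, chr5:8591488-8592340, had a peak of 4.13 in 1 acutely isolated library and of 7.43 to 18.8 in the cultures. Of the culture-only regions, 3 lay within Abcb1a and 1 between Abcb1a and Abcb1b. The strongest, chr5:8719570-8720088, had a fold enrichment of 11.9 to 23 in the WT cultures and 20 and 20.1 in the stabilized cultures. It contains the 35 bases that Abcb1a-204 has beyond Abcb1a-201 and so covers the start of that transcript, which was counted in the acutely isolated ECs and not in the WT cultures.

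Abcg2 had 2 acute-only regions. The stronger, chr6:58623084-58623805 in an intron of Abcg2, had a fold enrichment of 14 and 12. Abcc4 had 2 as well, at 10.7 and 6.16 for chr14:118416111-118416596 and at 5.86 and 4.71 for chr14:118667497-118668058, the latter in an intron of the gene. Abcc1 and Abcc5 had none. Abcc1 had 1 culture-only region, chr16:14360842-14361262, just before its start, at 7.75 to 16.4 in the WT cultures and 13.1 and 12.7 in the stabilized cultures.

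**Figure D5:**
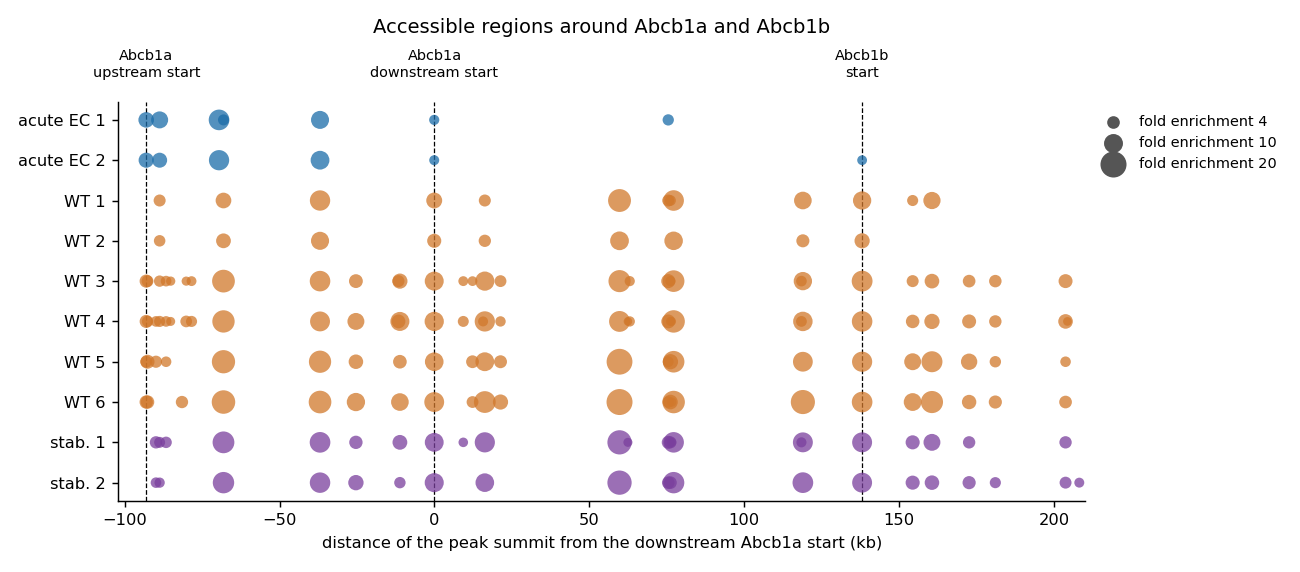
Accessible regions from upstream of Abcb1a to beyond Abcb1b in the 10 ATAC-seq libraries, by distance of the summit from the downstream Abcb1a start in kilobases, with circle area growing with fold enrichment and dashed lines at the 3 start sites. The acute-only region, between the first and the next dashed line, has a fold enrichment of 14.5 and 14, and the start of Abcb1b lies at 7.88 to 14.8 in the WT cultures.

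Sequences of 300 bases around the summit are printed for 4 of these regions to show the letters beneath the peaks. Capitals mark matches, on either strand, of TGANTCA (AP-1, N being any base), CTTTGA (TCF/LEF), TGTTTAC (forkhead) and AGGAAG (ETS).
Acute-only region of the Abcb1a locus, chr5:8590402-8590701: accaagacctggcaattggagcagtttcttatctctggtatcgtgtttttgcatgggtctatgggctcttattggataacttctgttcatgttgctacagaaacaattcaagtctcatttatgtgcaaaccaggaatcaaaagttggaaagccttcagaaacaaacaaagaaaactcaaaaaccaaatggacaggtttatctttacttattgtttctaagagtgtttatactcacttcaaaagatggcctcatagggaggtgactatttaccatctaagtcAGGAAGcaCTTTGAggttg
Neighbouring region with peaks in all cultures, chr5:8591835-8592134: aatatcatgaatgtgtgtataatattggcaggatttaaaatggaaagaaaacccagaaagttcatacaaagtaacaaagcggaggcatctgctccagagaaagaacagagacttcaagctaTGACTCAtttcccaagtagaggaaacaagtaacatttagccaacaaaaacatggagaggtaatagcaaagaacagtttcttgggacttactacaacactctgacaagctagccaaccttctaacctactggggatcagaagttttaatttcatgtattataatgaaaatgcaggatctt
Culture-only region within Abcb1a, chr5:8719659-8719958: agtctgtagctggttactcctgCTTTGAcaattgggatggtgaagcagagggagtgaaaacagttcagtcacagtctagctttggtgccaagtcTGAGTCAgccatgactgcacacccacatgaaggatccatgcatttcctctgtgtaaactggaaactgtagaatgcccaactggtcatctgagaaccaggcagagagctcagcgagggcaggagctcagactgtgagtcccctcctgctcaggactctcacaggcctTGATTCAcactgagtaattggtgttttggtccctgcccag
Acute-only region of Abcg2, chr6:58623422-58623721: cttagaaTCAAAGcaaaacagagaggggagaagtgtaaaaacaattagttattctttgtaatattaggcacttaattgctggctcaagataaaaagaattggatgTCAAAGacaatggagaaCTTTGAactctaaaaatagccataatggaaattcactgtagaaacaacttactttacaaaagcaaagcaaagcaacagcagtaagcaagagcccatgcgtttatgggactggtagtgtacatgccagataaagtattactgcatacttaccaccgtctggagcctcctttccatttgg
The acute-only window of the Abcb1a locus held 1 match of CTTTGA and none of TGANTCA, and that of Abcg2 held 3 of CTTTGA and none of TGANTCA. The neighbouring window held 1 match of TGANTCA, and the culture-only window held 2 of TGANTCA and 1 of CTTTGA. Over the loci of all 6 genes, CTTTGA was found in 3 of 5 acute-only and 3 of 12 culture-only windows, and TGANTCA in 0 of 5 and 10 of 12. Over the whole genome CTTTGA was found in 39.2% of acute-only and 18.5% of culture-only windows, and TGANTCA in 5.93% and 52.8%. A match of letters does not show that a factor was bound.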

How the data were processed

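RNA-seq covered 14 libraries and ATAC-seq 10. The authors ran Salmon 0.14.0 against GENCODE M21 with its corrections for sequence, GC and position bias. The deposited tables list 140198 transcripts, each with its estimated count and its TPM, which the authors' tool derives from the count and the effective length. Per the labels, ATAC-seq reads were aligned with HISAT2 2.1.0 to GRCm38 and peaks were called with MACS2 2.1.2 in each library. The deposited peak lists give fold enrichment over local background and −log10 p and q values.

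Counts and TPM were summed per gene symbol over all transcripts, and counts were rounded. Where 27 symbols stood for several identifiers, the most abundant was used. The quasi-likelihood test of edgeR 4.0.16 (R 4.3.3) was applied to protein-coding genes (filterByExpr, TMM, Benjamini-Hochberg adjustment over all genes tested), each comparison on its own libraries. The thresholds are those of the study, whose own test (EBSeq) was not used here. CPM is the count scaled to the library total. Length-limited TPM leaves out transcripts under 300 bases and is rescaled to the usual sum. This choice, the upstream Abcb1a start and the motifs were added after seeing the data. The fits were tested on simulated data. Replicates are wells of pooled mice for cultures, so p-values measure the spread between these libraries. At 24284843 to 94686456 counts, counting error is small beside it.

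Peaks with fold enrichment above 2 and −log10 q above 2 were kept, and peaks that overlapped by at least 1 base were merged into regions. Sequences came from GENCODE M21 transcripts and the RefSeq assembly of GRCm38. Pairing by replicate number was checked by the correlation of deviations from group means. Same-numbered stabilized and WT cultures correlated at 0.266, 0.321, 0.280 and 0.303, as both follow isolation method, and acutely isolated ECs did not correlate with WT cultures (0.00841) or GFP-negative cells (0.0656).

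Genes named are the 6 pump genes, the 5 other Abc genes with the largest change in each direction among those called in WT cultures and any called in stabilized cultures, the 3 nearest genes by correlation, and the called transcription factors. The members and lists were chosen with earlier results of these data known. Alternatives used DESeq2 1.42.0, other scalings, filters, transcript sets and subsets of libraries. Samples labelled cerebrum were not analysed here.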

Additional observations from a re-analysis of the deposited data

Results flagged for a closer look

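The effect of beta-catenin stabilization differed between the isolation methods for 3 pump genes by a test of the interaction in edgeR over the 8 cultures of 36 cycles (method B minus method A, log2). Abcg2 had 1.5 (adjusted p = 9.66e-05), being lower in the stabilized wells of method A and higher in those of method B. Abcc1 had -0.69 (0.00111), with 0.13 in method A and -0.59 in method B. On the TPM scale stabilized wells were 1.77-fold higher in method A and lower in method B (0.642 of WT), without overlap in either. Abcb1b had 0.40 (0.00988), at -0.04 in method A and 0.34 in method B, and without stabilized replicate 4 its adjusted p was 0.0673. On the TPM scale its order is reversed, at 1.47-fold in method A and 1.11-fold in method B. Each arm is 2 wells of 1 experiment, and 49.6% of all genes tested had an adjusted p under 0.05 in this interaction. No group of 4 to 10 libraries held an outlying value among the 20 tested.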

How the results depend on the processing

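Of 939 values recomputed under an alternative, 862 kept their direction and their side of the threshold. The 4 culture calls (Abcb1a, Abcb1b, Abcc4, Abcc1) and the 3 sort calls (Abcb1a, Abcg2, Abcc4) held under all alternatives run for them. Values that changed follow, as log2 fold changes unless another measure is named. The cause was not tested unless the setting itself removes libraries or genes. For culture, the log2 fold change of Abcc5 changed sign from -0.31 to 0.0399 with the replicate block and 0.0337 in method A alone. For the sort, Abcb1b was 0.68 with the length offset, and Abcc1 passed at -1.55 with DESeq2 (adjusted p = 0.0415) and -1.5 with all 14 libraries in 1 edgeR fit (0.0183). For stabilization, method as a covariate over 36-cycle cultures gave 0.42 for Abcb1a and 0.30 for Abcc5. Method A alone gave 0.39 for Abcb1a, -0.0412 for Abcb1b, -0.78 for Abcg2, 0.13 for Abcc1, 0.55 for Abcc4 and 0.29 for Abcc5. Method B at 36 cycles alone gave 0.46, 0.34, 0.70, -0.59, 0.23 and 0.32 in the same order. The replicate block, which follows isolation method, gave 0.26 for Abcc1 and changed no other call of a pump gene. Abcc4 was -0.0299 by library size alone and -0.10 with the length offset.

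Leaving out 1 library each gave stabilization values of -0.19 to 0.0630 for Abcc1 and -0.0808 to 0.16 for Abcc4, and interaction values of -0.00480 to 0.18 for Abcb1a, 0.33 to 0.44 for Abcb1b, -0.58 to -0.0628 for Abcc4 and -0.0138 to 0.11 for Abcc5. Without WT replicate 2 the Abcc4 interaction passed (-0.58, edgeR adjusted p = 0.0041). It also gave 5 to 9 acute-only regions (9 without acute EC replicate 2) and 12 to 24 culture-only regions (24 without WT replicate 2, 19 without acute EC replicate 1). With peaks of −log10 q above 10, the count was 7 culture-only regions.

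Without the TPM minimum 16 Abc genes were called for culture and 13 for the sort, in place of 7 and 6 (of 33 and 39 tested), beside 43.4% and 29.7% of all genes tested. For stabilization the count of Abc genes called was 1 of 33 tested with the replicate block, beside 1.4% of all genes, in place of 0. With method as a covariate it was 2 of 32, beside 66 genes higher and 10 lower of 13125. In method A it was 2 of 32, beside 6.3% of all genes, and in method B 2 of 31, beside 1.36%. The Abcb1a share difference for stabilization was 9.21 points by counts, 9.57 by protein-coding TPM and 9.58 over means of wells, none past 0.05 in the exact permutation test. Of the 18 nearest genes, 11 were shared with log2(TPM + 0.1) and 10 over transcripts of at least 300 bases.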
